A study of Mus musculus with 12 samples.

Results

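The 12 ventricle libraries of this mouse series were divided by their level of Fos, the transcript of an immediate early transcription factor, and the divided libraries were compared gene by gene across all 3 treatment groups. A library counted as Fos-high when Fos reached at least 20 CPM (counts of a gene per 1000000 counts of the library) and as Fos-low otherwise. The libraries were thus selected on the measured Fos values alone, which gave 7 Fos-high and 5 Fos-low libraries of 12 in all. All mice were wild-type C57Bl/6J, and every library was total RNA of snap-frozen ventricles. Sham-NT mice (4) were operated on without constriction and given PBS. In TAC-mScarlet mice (4) the transverse aorta was constricted, so that the left ventricle pumps against a higher pressure, and they carried AAV9-MHCK7-mScarlet, a virus that makes a red fluorescent protein from a muscle promoter. TAC-BacNav mice (4) had the same operation and carried AAV9-MHCK7-BacNav-mScarlet, which adds a bacterial voltage-gated sodium channel. Constriction and a vector were introduced together, so they cannot be told apart between Sham-NT and either TAC group.

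Immediate early genes are switched on from existing transcription factors, without new protein synthesis, when a cell meets stretch, growth factors, adrenergic signals, inflammation or handling of the tissue. Fos pairs with Jun proteins to form the AP-1 factor. Kinase signals reach these genes through serum response factor (SRF) at CArG boxes and through CREB at cAMP response elements, and many of the induced genes encode inhibitors, such as dual-specificity phosphatases, that shut the signal off. Glucocorticoid hormone acts on a separate set of genes, among them Fkbp5 and Tsc22d3, and in the heart its level and the circadian clock vary over the day. Mesothelial cells cover the heart as the epicardium and line the pericardial sac, so their transcripts reach a ventricle sample with its surface.

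The 5 promoter stretches printed here were chosen because they belong to genes that stood on opposite sides of the comparison and carry the short motifs through which the signals above are read. They run from 250 to 51 bases before the RefSeq start (GRCm38.p6), 5′ to 3′ on the strand of the gene, with the motif in capitals. Dusp1, which encodes a phosphatase of MAP kinases, and Btg2, an antiproliferative immediate early gene, hold a cAMP response element (TGACGTCA). Egr2, a zinc finger transcription factor, holds a CArG box. Cxcl1, a neutrophil-attracting chemokine, holds an NF-kB site that is matched on both strands with the matches overlapping. Hspa1b, an inducible chaperone, holds a heat shock element searched as GAANNTTC.
Dusp1, chr17:26508523-26508722, minus strand: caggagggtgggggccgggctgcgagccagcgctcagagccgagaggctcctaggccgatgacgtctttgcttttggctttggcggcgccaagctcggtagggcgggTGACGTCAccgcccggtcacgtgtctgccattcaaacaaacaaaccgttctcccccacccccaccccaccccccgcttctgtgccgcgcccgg
Btg2, chr1:134079206-134079405, minus strand: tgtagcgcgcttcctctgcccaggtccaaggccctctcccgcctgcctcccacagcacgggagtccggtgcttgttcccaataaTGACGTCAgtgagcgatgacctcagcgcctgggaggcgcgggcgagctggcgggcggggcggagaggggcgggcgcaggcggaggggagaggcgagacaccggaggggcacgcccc
Egr2, chr10:67537619-67537818, plus strand: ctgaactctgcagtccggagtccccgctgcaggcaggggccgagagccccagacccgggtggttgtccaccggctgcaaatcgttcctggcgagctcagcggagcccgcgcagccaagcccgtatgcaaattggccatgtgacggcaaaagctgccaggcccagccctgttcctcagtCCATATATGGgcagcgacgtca
Cxcl1, chr5:90890995-90891194, plus strand: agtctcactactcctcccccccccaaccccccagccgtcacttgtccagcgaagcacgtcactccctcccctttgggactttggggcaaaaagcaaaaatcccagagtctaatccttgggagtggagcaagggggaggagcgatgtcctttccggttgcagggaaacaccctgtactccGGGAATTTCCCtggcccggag
Hspa1b, chr17:34959289-34959488, minus strand: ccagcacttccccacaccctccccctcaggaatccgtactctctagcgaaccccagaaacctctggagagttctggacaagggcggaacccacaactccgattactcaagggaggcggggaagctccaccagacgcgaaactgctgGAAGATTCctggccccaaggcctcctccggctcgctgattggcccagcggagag

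Over all 32851 RefSeq promoter windows of 250 bases before the start, searched on both strands, the cAMP response element was found in 1.55%, the CArG box in 1.47%, the NF-kB site in 3.9% and the heat shock element in 6.69%. In the 13313 windows of genes tested here the shares were 2.46%, 1.21%, 4.52% and 4.99%. Of 551 genes that differed between the sides, 415 matched a window by symbol, with 281 windows for genes higher in Fos-high libraries and 269 for genes lower. The cAMP response element was in 4.98% of the windows of the higher genes and in 1.49% of those of the lower genes. For the CArG box the shares were 3.56% and 1.12%, for the NF-kB site 5.34% and 8.92%, and for the heat shock element 7.47% and 4.83%. The AP-1 site (TGANTCA) was in 7.83% and 4.09%, against 4.56% of tested genes, and the glucocorticoid response element (ACANNNTGT) in 6.41% and 4.46%, against 3.79%. The E-box (CACGTG) was in 7.47% and 5.95%, against 8.09%.

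Lists named for a signal held its motif in unequal shares. The NF-kB site stood in 13 of 29 windows of NF-kB and early cytokine genes (44.8%), and the CArG box in 5 of 15 windows of SRF and MRTF targets (33.3%) and 6 of 34 of immediate early transcription factors (17.6%). The cAMP response element was in 2 of 19 windows of cAMP and CREB targets (10.5%), and the glucocorticoid response element in 8 of 49 of glucocorticoid-responsive genes (16.3%). The heat shock element was in 7 of 26 windows of heat shock chaperones (26.9%), but also in 5 of 18 of cell cycle genes (27.8%) and 3 of 12 of smooth muscle markers (25.0%). These matches describe letters in a window and are neither binding sites nor causes, and lists named for a factor were built from its known targets.

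Fos itself set the sides and is given as a description only. It stood at 75.7 and 50.7 CPM in Sham-NT 1 and 2, at 305, 129.8 and 164 CPM in TAC-mScarlet 1, 2 and 3, and at 154 and 228 CPM in TAC-BacNav 1 and 2. The Fos-low libraries were Sham-NT 3 and 4 (5.49 and 1.51 CPM), TAC-mScarlet 4 (8.05 CPM) and TAC-BacNav 3 and 4 (3.94 and 5.57 CPM). The library nearest the threshold from above was Sham-NT 2 and the nearest from below was TAC-mScarlet 4. Each group therefore held both sides, 2 and 2 in Sham-NT and TAC-BacNav, and 3 and 1 in TAC-mScarlet, where a single library stood for the Fos-low side. Side also followed the mouse number in the labels: numbers 1 and 2 were Fos-high in all groups, number 4 was Fos-low in all groups and number 3 was mixed. The labels give no collection order or time for these numbers, so side and whatever the number stands for cannot be told apart. Library totals were 7.77 ± 1.68 M counts (SD, n = 7, where M stands for mega) in Fos-high and 8.35 ± 1.88 M (SD, n = 5) in Fos-low libraries and overlapped, over a range of 5.36 to 11.5 M in all (two-sided exact permutation test, p = 0.585).

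All p-values for single genes come from edgeR's quasi-likelihood test with the treatment group as covariate and Benjamini-Hochberg adjustment over 13909 genes, Fos left out. They measure which other transcripts went with the Fos side of the same libraries and are no test of a treatment. Differences are log2 values of Fos-high minus Fos-low, and the threshold for a call was an adjusted p of 0.05. Single values of Fos-low libraries are listed in the order Sham-NT 3, Sham-NT 4, TAC-mScarlet 4, TAC-BacNav 3 and TAC-BacNav 4, and the 7 Fos-high values by their lowest, median and highest.

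Of 13909 genes, 551 (3.96%) were called, 301 higher (2.16%) and 250 lower (1.8%) in Fos-high hearts. Among them 148 were at least 2-fold higher and 30 at least 2-fold lower, while the median difference over all genes was 0.0036. All Fos-high values lay above all Fos-low values for 192 genes (1.38%) and below them for 139 (0.999%), or 331 in all (2.38%). Calls among list members, given below, compare with the 2.16% higher and 1.8% lower of all genes. Leaving out single libraries gave 251 to 803 calls, and 187 of the 551 genes were called in all 12 such fits. The count fell by more than 1.5 times without TAC-mScarlet 4 (251), TAC-BacNav 4 (288) or TAC-BacNav 1 (329). A principal component analysis without Fos placed the sides apart on component 2, which held 19.0% of the variance. Fos-high libraries had scores of 4.64 to 31.6 there and Fos-low libraries of -34.7 to -11.5.

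**Figure D1:**
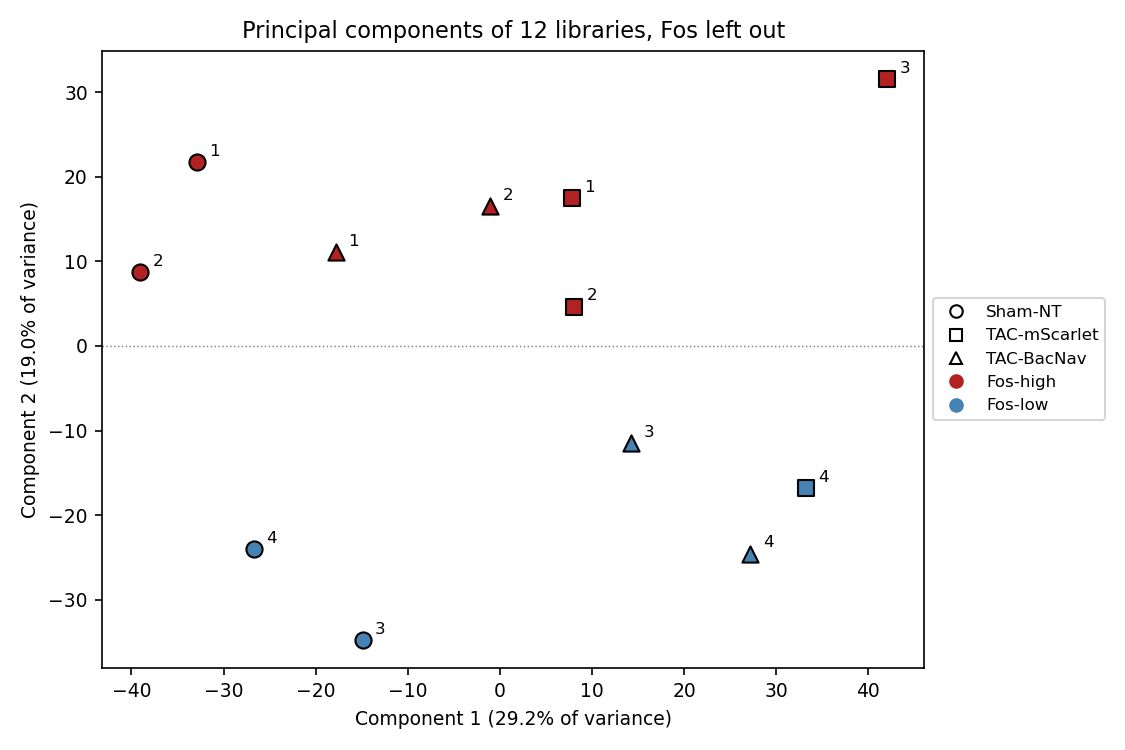
Scores of the 12 libraries on the leading principal components of log2 CPM with Fos left out (arbitrary units, percent of variance on each axis); symbols give the group, colours the Fos side and digits the mouse number. Fos-high libraries lie at 4.64 or above on component 2 and Fos-low libraries at -11.5 or below.

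Most of the immediate early transcription factors tested were higher in Fos-high hearts. Of 31 tested, 18 were called higher (58.1%, against 2.16% of all genes) and 1, Nfil3, lower (3.23%, against 1.8%). The median log2 difference was 0.86. The lower call was lost in 8 of 12 fits that left out a library (largest adjusted p 0.236). The list was built around known partners of Fos and is no independent evidence of its direction. Junb (chr8:84974484-84978718, GRCm38), a Jun protein that binds DNA with Fos, ran from 76.4 to 208 CPM (median 168) in Fos-high libraries. In Fos-low libraries it was at 16.6, 9.53, 23.9, 15.4 and 15.1 CPM, so the sides did not overlap, and the difference was 3.12 ± 0.18 (SE, adjusted p = 1.60e-07). Exons of Junb overlap Prdx2 on the opposite strand. Egr1, a zinc finger factor induced through SRF, ranged from 198 to 797 CPM (median 593) on the high side. Its Fos-low values were 28.7, 15.4, 35.7, 23.5 and 23.7 CPM, again without overlap and lowest in Sham-NT 4, with a difference of 4.14 ± 0.28 (SE, adjusted p = 3.35e-06). Nr4a1, an orphan nuclear receptor induced by cAMP and stress, gave the same separation, from 195 to 530.0 CPM (median 347) against 23.6, 4.24, 34.6, 19.2 and 16.1 CPM, and a difference of 4.19 ± 0.43 (SE, adjusted p = 0.0006).

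Egr2 (chr10:67535475-67542188), whose promoter with a CArG box is printed above, was at 0.510, 0.605, 4.38, 3.26 and 2.09 CPM in Fos-low hearts and ran from 6.85 to 50.1 CPM (median 24.2) in Fos-high hearts. The difference was 3.31 ± 0.23 (SE, adjusted p = 3.71e-07), and the lowest values were those of the 2 Fos-low sham hearts. Ier2, a small nuclear immediate early protein, differed by 2.23 ± 0.16 (SE, adjusted p = 4.07e-07), and Nr4a2, a relative of Nr4a1, by 3.89 ± 0.40 (SE, adjusted p = 0.000217). For Zfp36, which encodes an RNA-binding protein that destabilises cytokine messages, the difference was 1.80 ± 0.23 (SE, adjusted p = 0.000645). Jun, the founding partner of Fos, was higher by 0.86 ± 0.16 (SE, adjusted p = 0.00557), but its Fos-high values started at 73.3 CPM, within the Fos-low range of 64.7 to 102 CPM. Fosb, the closest relative of Fos, had the largest difference among the genes named, 4.79 ± 0.93 (SE, adjusted p = 0.0237), running from 5.23 to 68.4 CPM (median 17.4) against 1.53, 0.454, 0.355, 0.543 and 0.870 CPM. Its call was lost without Sham-NT 1, TAC-mScarlet 4, TAC-BacNav 3 or TAC-BacNav 4 (largest adjusted p 0.106). Not all members followed: Myc differed by 0.57 ± 0.34 (SE, adjusted p = 0.392), and Srf, Klf6, Cebpb and Ier3 (chosen after their values were seen) were not called, at -0.07, -0.02, 0.11 and -0.49.

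Some negative regulators of MAP kinase signalling and targets of cAMP were called higher on the same side. Of 16 feedback phosphatases and inhibitors, 5 were called higher (31.2%, against 2.16% of all genes) and none lower. Of 18 cAMP and CREB targets 8 were higher (44.4%) and none lower, and the 2 list medians were 0.54 and 0.81. Dusp1 (chr17:26505590-26562128), which removes phosphate from p38, JNK and ERK kinases, had the smallest p of all genes. It ranged from 281 to 504 CPM (median 442) in Fos-high hearts and was at 94.3, 73.4, 104, 123 and 115 CPM in Fos-low hearts, a difference of 2.06 ± 0.12 (SE, adjusted p = 5.75e-08) without overlap. Its exons overlap Ergic1 on the opposite strand. Btg2 ran from 123 to 579.9 CPM (median 349.6) against 45.0, 31.3, 61.3, 41.2 and 49.3 CPM, with a difference of 2.76 ± 0.29 (SE, adjusted p = 0.000296).

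Dusp5, a nuclear ERK phosphatase, was higher by 1.75 ± 0.29 (SE, adjusted p = 0.00251), and Spry2, an inhibitor of receptor tyrosine kinase signalling, by 0.94 ± 0.15 (SE, adjusted p = 0.00197). Gem, a small GTPase that restrains calcium channels, was higher by 1.65 ± 0.19 (SE, adjusted p = 6.54e-05), and Pde4b, a phosphodiesterase that breaks down cAMP, by 0.83 ± 0.11 (SE, adjusted p = 0.000216). All 4 kept their call without any single library. The feedback count fell to 3 without TAC-mScarlet 4, TAC-BacNav 2, Sham-NT 1 or Sham-NT 4, and the cAMP count to 5 without TAC-BacNav 3 or TAC-BacNav 4.

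Of 17 SRF and MRTF targets, 4 were called higher and none lower, and the list median was -0.045. The 4 were Egr1, Ccn1, Actg1 and Actb, and their number was 4 in each fit that left out a library. Ccn1, a matrix-associated signalling protein, ranged from 190.1 to 678 CPM (median 392) against 55.5, 43.1, 130.3, 133 and 107 CPM and differed by 1.97 ± 0.16 (SE, adjusted p = 1.39e-06). The cytoplasmic actins Actg1 and Actb differed by 1.30 ± 0.14 (SE, adjusted p = 3.72e-05) and 0.80 ± 0.14 (SE, adjusted p = 0.00272), each without overlap of the sides. Actins are near copies of each other, so reads may be split between them. Other SRF targets such as Vcl, Tpm1 and Ccn2 (chosen after their values were seen) were not called, at -0.51, 0.23 and -0.072.

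Several early cytokine genes were also called higher in Fos-high hearts. Of 28 NF-kB and early cytokine genes, 9 were called higher and none lower, with a median of 0.46. The filter on low counts corresponds to 1.22 CPM, a level that 3 of the 9 reached in no Fos-low library, so that they passed it through Fos-high libraries. Cxcl1 (chr5:90891241-90893115) ran from 28.0 to 50.0 CPM (median 39.5) on the high side and at 2.93, 1.36, 4.85, 3.12 and 4.61 CPM on the low side. The sides lay apart, and the difference was 3.55 ± 0.22 (SE, adjusted p = 2.74e-07). Il1b, which encodes the inflammatory cytokine interleukin 1 beta, ran from 5.77 to 19.3 CPM (median 9.51) against 0.893, 0.605, 1.78, 1.09 and 1.04 CPM, with a difference of 3.06 ± 0.24 (SE, adjusted p = 1.36e-06). The monocyte-attracting chemokines Ccl2 and Ccl7 differed by 1.95 ± 0.21 (SE, adjusted p = 3.01e-05) and 2.28 ± 0.22 (SE, adjusted p = 1.16e-05). By contrast Nfkbia, the inhibitor that NF-kB itself induces, and the adhesion genes Icam1 and Vcam1 (chosen after their values were seen) were at -0.14, 0.091 and 0.11 and were not called.

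**Figure D2:**
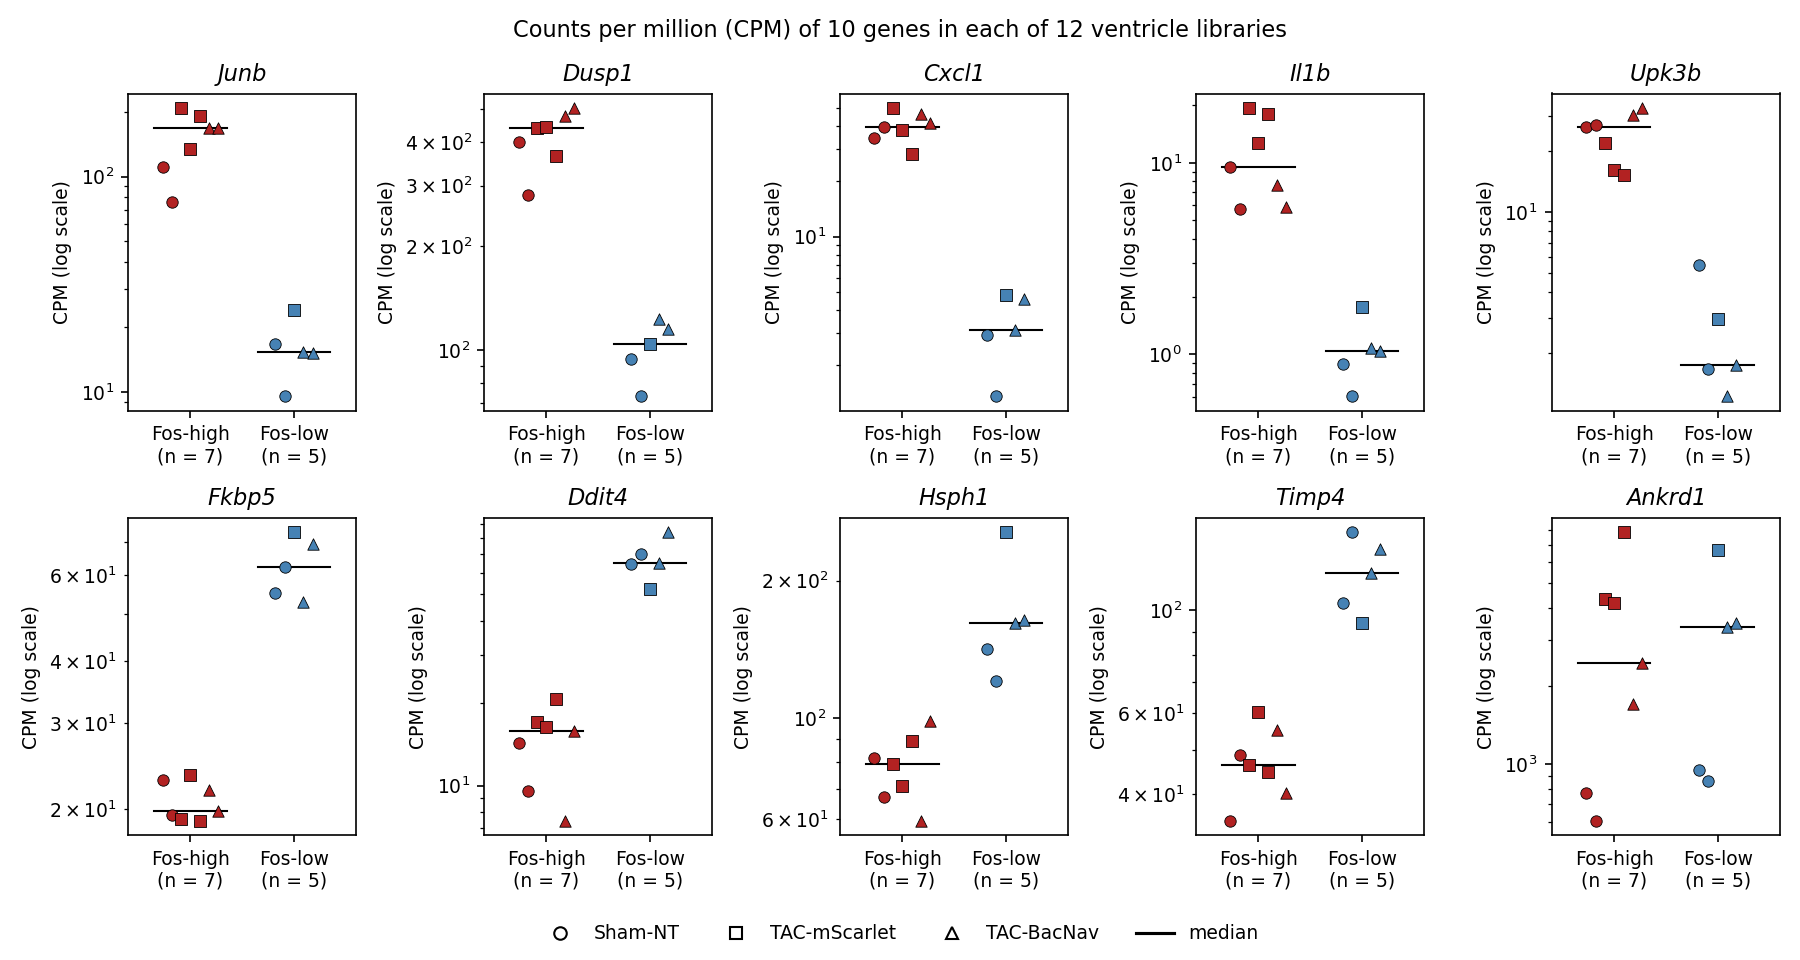
CPM (log axis) of 10 genes in each library, by Fos side; symbols give the group and lines the median of the side. The sides do not overlap for the 9 genes from Junb to Timp4, whereas Ankrd1 overlaps and follows the group, with its lowest values in Sham-NT.

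Some markers of other cells moved with the side. Of 15 neutrophil markers listed, 9 were in the tables and 7 passed the filter on low counts. The 9 summed to 19.1 to 90.0 CPM in Fos-high and 6.89 to 16.4 CPM in Fos-low libraries. Since members this low can pass the filter through the Fos-high libraries alone, as S100a8 did, the 4 called higher are given by their values and not as a share of the list. S100a8, a calcium-binding protein of neutrophil granules, ran from 2.34 to 24.4 CPM (median 5.22) against 0.255, 0.908, 0.947, 0.679 and 0.783 CPM, a difference of 3.16 ± 0.39 (SE, adjusted p = 0.000131). Its partner S100a9 ran from 1.98 to 33.8 CPM (median 7.83) against 0.383, 0.454, 0.592, 1.22 and 0 CPM, a difference of 3.95 ± 0.66 (SE, adjusted p = 0.00494). The protease Mmp9 and the histamine-making enzyme Hdc differed by 1.89 ± 0.28 (SE, adjusted p = 0.000786) and 2.05 ± 0.32 (SE, adjusted p = 0.00132). Csf3r and Lcn2 were not called, at 0.78 and -0.40. The part of neutrophils in the cytokine differences was not tested.

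Of 27 mesothelial markers listed, 24 were in the tables and were tested, and 18 were called higher and none lower, with a median difference of 2.07. Of the 18, 6 reached the filter level of 1.22 CPM in no Fos-low library and 12 reached it in at least 1. The count was 16 to 18 when single libraries were left out. Their summed level was 718 to 980.0 CPM in Fos-high and 429 to 631 CPM in Fos-low libraries, without overlap. Upk3b (chr5:136038496-136046487), a uroplakin made by mesothelium, ranged from 15.3 to 32.7 CPM (median 26.3) in Fos-high hearts. Fos-low hearts had 5.49, 1.66, 2.96, 1.22 and 1.74 CPM, highest in Sham-NT 3, and the difference was 3.35 ± 0.30 (SE, adjusted p = 1.16e-05). Msln, the surface protein mesothelin, ran from 12.5 to 28.8 CPM (median 17.3) against 4.72, 2.72, 0.473, 0.951 and 1.39 CPM, a difference of 3.51 ± 0.34 (SE, adjusted p = 3.01e-05).

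Upk1b, a tetraspanin partner of uroplakins, ran from 4.64 to 11.6 CPM (median 9.79) against 1.02, 0.756, 1.18, 0.543 and 0.435 CPM, a difference of 3.59 ± 0.32 (SE, adjusted p = 5.31e-06). No Fos-low library reached the filter level of 1.22 CPM, so Upk1b entered the test through Fos-high libraries alone. For Lrrn4 and Gpm6a, surface proteins enriched in mesothelium, the differences were 3.46 ± 0.33 (SE, adjusted p = 9.74e-06) and 2.28 ± 0.24 (SE, adjusted p = 2.56e-05). Keratins of this epithelium, chosen after their values were seen, went the same way: Krt7 was 1.21 to 3.31 CPM against 0 to 0.592 CPM, Krt8 0.933 to 3.68 CPM against 0.087 to 0.638 CPM and Krt18 4.33 to 10.4 CPM against 0.893 to 2.96 CPM. Krt7 and Krt8 also passed the filter through Fos-high libraries alone. Wt1, a transcription factor of epicardial cells, was not called, at 0.81 ± 0.29 (SE, adjusted p = 0.149), and neither were Aldh1a1 and Sulf1, which other cells of the heart also make, at 0.063 and -0.11. In bulk tissue, more cells of a type and more RNA per cell cannot be told apart. The part of mesothelial tissue in the other differences was not tested.

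Atrial tissue can also reach a ventricle sample, and of 14 atrial markers tested 1 was called in each direction. Myl7, the atrial myosin light chain, ran from 1.67 to 5.19 CPM (median 3.92) against 0.766, 0.908, 0.118, 0.136 and 0.174 CPM, a difference of 3.30 ± 0.50 (SE, adjusted p = 0.000956). It reached the filter level of 1.22 CPM in no Fos-low library, so it entered the test through Fos-high libraries alone. Pam, a peptide-processing enzyme of atrial granules, went the other way, -0.56 ± 0.14 (SE, adjusted p = 0.0322), with overlapping sides and with the call lost in 8 of 12 fits that left out a library. The atrial light chain Myl4 was not called, at 0.28. None of 20 ventricular cardiomyocyte markers was called, and their summed level was 91649 to 129915 CPM in Fos-high and 107669 to 131294 CPM in Fos-low libraries.

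Of 22 endothelial markers, 1 was called higher (4.55%, against 2.16% of all genes) and 5 lower (22.7%, against 1.8%). The lower count was 3 without TAC-mScarlet 4, TAC-BacNav 1, TAC-BacNav 2 or TAC-BacNav 4. The higher gene was Cldn5 (chr16:18776847-18778262), a tight junction protein of endothelium. It ranged from 53.9 to 135 CPM (median 106) in Fos-high hearts and was at 12.0, 19.2, 16.6, 21.9 and 18.4 CPM in Fos-low hearts, a difference of 2.66 ± 0.22 (SE, adjusted p = 7.68e-06) without overlap. Ly6c1, a surface protein of capillary endothelium, differed by -0.78 ± 0.12 (SE, adjusted p = 0.000803), and the VEGF receptor Flt1 by -0.57 ± 0.12 (SE, adjusted p = 0.0114). The other lower genes were Eng, Pecam1 and Erg, at -0.48, -0.39 and -0.50. Kdr, Vwf and Emcn were not called, at 0.022, -0.047 and 0.043. Hes1 (chr16:30064384-30067796), a repressor induced by Notch, ran from 31.7 to 64.0 CPM (median 49.1) against 12.8, 13.8, 15.6, 13.7 and 14.6 CPM and differed by 1.69 ± 0.12 (SE, adjusted p = 3.71e-07), and Notch activity was not otherwise examined. No fibroblast, activated fibroblast, smooth muscle, lymphocyte or red cell and platelet marker was called of 20, 15, 16, 5 and 9 tested. Of 22 macrophage markers only Lyve1, which lymphatic endothelium also makes, was called lower, at -0.79 ± 0.13 (SE, adjusted p = 0.00178).

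**Figure D3:**
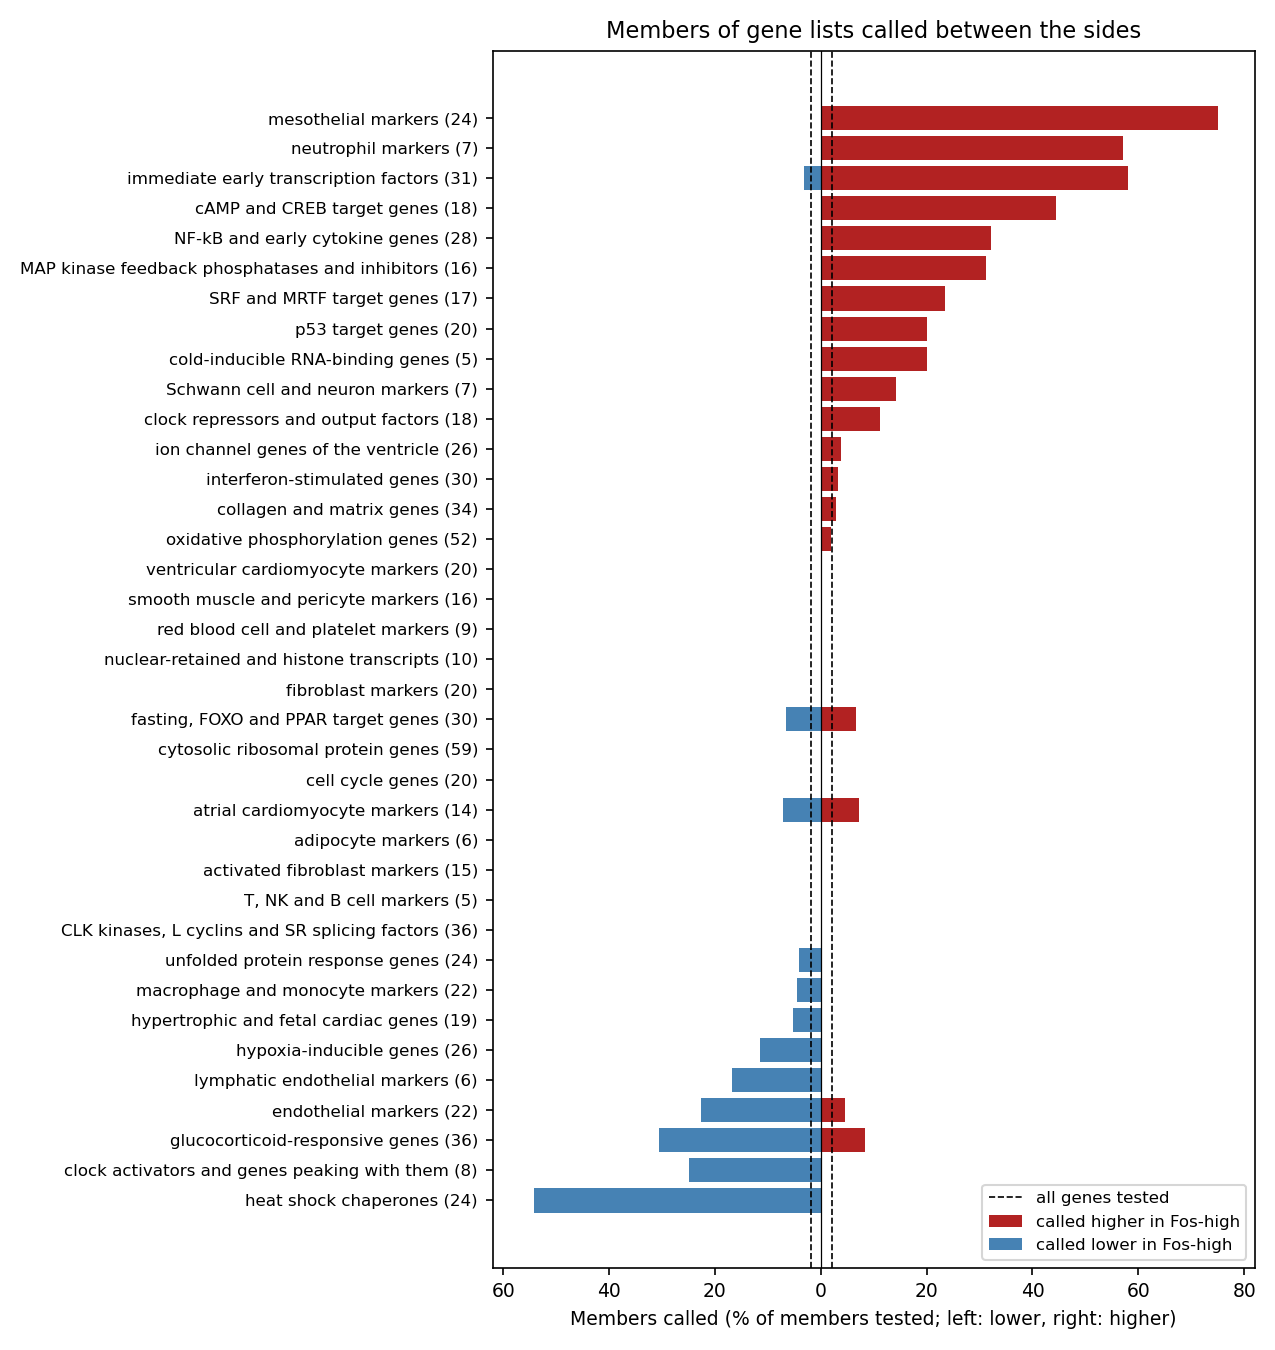
Percent of tested members called higher (right) or lower (left) in Fos-high libraries, for the lists with at least 5 tested members; the number tested is in parentheses and dashed lines mark all genes (2.16% higher, 1.8% lower). Mesothelial markers (18 of 24) have the longest bar on the right and heat shock chaperones (13 of 24) on the left. Of the 18 mesothelial calls, 6 reached the filter level of 1.22 CPM in no Fos-low library and passed it through Fos-high libraries. Low neutrophil markers could also pass the filter through Fos-high libraries, so their bar is drawn but not read as a share.

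Part of the glucocorticoid-responsive genes were lower in Fos-high hearts. Of 36 tested, 11 were called lower, 3 higher and 22 neither, with a median of -0.27, and the 3 higher genes were Dusp1, Gadd45g and Errfi1, of which Dusp1 and Errfi1 are also on the MAP kinase feedback list. Errfi1 kept its call in 2 of 12 fits that left out a library (largest adjusted p 0.166). The summed levels of the 37 members with counts overlapped, at 2852 to 3564 CPM in Fos-high and 3040 to 3834 CPM in Fos-low libraries. The lower count was 7 without TAC-mScarlet 4, and the higher count was 6 without TAC-mScarlet 3. Fkbp5 (chr17:28399094-28517527), a co-chaperone that dampens the glucocorticoid receptor and is itself induced by it, ran from 19.0 to 23.5 CPM (median 19.8) on the high side. In Fos-low hearts it was at 55.2, 62.3, 73.3, 52.8 and 69.5 CPM, more than any Fos-high heart, and the difference was -1.58 ± 0.11 (SE, adjusted p = 4.07e-07). Ddit4 (chr10:59949669-59951834), an inhibitor of the growth kinase mTORC1, ran from 7.45 to 20.8 CPM (median 15.8) against 64.8, 70.3, 52.2, 65.1 and 84.2 CPM, a difference of -2.27 ± 0.20 (SE, adjusted p = 7.13e-06).

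Tsc22d3, the leucine zipper protein GILZ, ran from 129 to 184 CPM (median 138) against 201, 244, 301, 254 and 287 CPM, a difference of -0.84 ± 0.11 (SE, adjusted p = 0.000165). Fam107a, an actin-binding stress protein, ran from 2.98 to 9.19 CPM (median 3.97) against 22.5, 22.2, 27.2, 18.6 and 35.2 CPM, a difference of -2.24 ± 0.26 (SE, adjusted p = 0.000173). Zbtb16, a zinc finger repressor, had the same separation and a difference of -1.72 ± 0.35 (SE, adjusted p = 0.021), a call lost without Sham-NT 3, TAC-mScarlet 4 or TAC-BacNav 4 (largest adjusted p 0.0877). Other known targets were not called: Per1 was at 0.55 ± 0.18 (SE, adjusted p = 0.102), Sgk1 at 0.51 ± 0.22 (SE, adjusted p = 0.241) and Klf9 at -0.29 ± 0.15 (SE, adjusted p = 0.304). Per1 and Sgk1 lay above 0 and Klf9 below.

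Several further genes were high where Fos was low. Timp4 (chr6:115241892-115252205), an inhibitor of matrix metalloproteinases that the heart makes, ran from 35.1 to 60.4 CPM (median 46.4) against 104, 148, 93.7, 121 and 136 CPM, a difference of -1.31 ± 0.15 (SE, adjusted p = 6.94e-05). Its exons overlap Syn2 on the opposite strand. Acer2, an alkaline ceramidase of the Golgi, ran from 22.0 to 30.8 CPM (median 27.7) against 52.6, 59.2, 51.5, 68.7 and 65.2 CPM, a difference of -1.07 ± 0.10 (SE, adjusted p = 1.09e-05). For Depp1, a target of FOXO factors, the values were from 23.9 to 49.8 CPM (median 34.1) against 97.2, 125, 74.0, 139 and 109 CPM and the difference was -1.57 ± 0.17 (SE, adjusted p = 5.62e-05). Ms4a4a, a membrane protein of macrophages, and Ankrd37, an ankyrin repeat protein induced by hypoxia, differed by -1.27 ± 0.22 (SE, adjusted p = 0.00251) and -1.49 ± 0.31 (SE, adjusted p = 0.0132). In all 5 genes the sides were separate.

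Genes of fasting and FOXO signalling were mostly not called. Of 30 tested, 2 were called higher and 2 lower (6.67% each, against 2.16% and 1.8% of all genes), and 26 neither. The higher count moved between 1 and 5 and the lower count between 1 and 3 when single libraries were left out. Txnip, which blocks thioredoxin and glucose uptake, ran from 625 to 763 CPM (median 705) against 391, 479, 283, 376 and 490.1 CPM, a difference of 0.88 ± 0.13 (SE, adjusted p = 0.000773). The other higher gene was Trim63, a muscle ubiquitin ligase, at 0.55. Ddit4 and the mitochondrial carrier Ucp2 were lower, and Ucp2 differed by -0.56 ± 0.11 (SE, adjusted p = 0.00843), a call lost without TAC-mScarlet 4 (adjusted p 0.0613). The PPAR targets Pdk4 and Angptl4 (chosen after their values were seen) were not called, at 0.31 and 0.24. Of 26 hypoxia-inducible genes, 3 were called lower (11.5%, against 1.8% of all genes) and none higher. They were Ankrd37 and the collagen hydroxylases P4ha1 and P4ha2, which differed by -1.10 ± 0.13 (SE, adjusted p = 6.54e-05) and -0.68 ± 0.094 (SE, adjusted p = 0.000446). Vegfa, Slc2a1 and Ldha (chosen after their values were seen) were at -0.056, -0.022 and 0.16 and were not called.

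Of 8 clock activators and genes that peak with them, 2 were called lower (25%, against 1.8% of all genes) and none higher. Of 18 genes listed as clock repressors and output factors, 2 were called higher (11.1%, against 2.16%) and none lower. The lower genes were Cry1 and Nfil3, and the higher genes were Pdp1 and Bhlhe40. Mouse Pdp1 encodes a phosphatase of pyruvate dehydrogenase and is not a clock factor, so only Bhlhe40 stands for the second list. Both counts fell to 1 in some fits that left out a library: Nfil3 lost its call in 8 of 12 (all but Sham-NT 1, Sham-NT 4, TAC-mScarlet 1 and TAC-mScarlet 3), and Bhlhe40 without Sham-NT 1, Sham-NT 4, TAC-mScarlet 4, TAC-BacNav 1 or TAC-BacNav 4. Per2, a core repressor that glucocorticoids also raise, ran from 15.5 to 54.3 CPM (median 21.7) against 70.2, 99.4, 74.2, 140.5 and 73.2 CPM. Although its sides did not overlap, it missed the call, with a difference of -1.62 ± 0.41 (SE, adjusted p = 0.0631). Cry1, its partner, was called, running from 6.98 to 12.9 CPM (median 7.64) against 18.5, 13.9, 15.4, 17.5 and 22.6 CPM, with a difference of -0.94 ± 0.18 (SE, adjusted p = 0.00709), and, like Pdp1, kept the call without any single library. Arntl, the activator BMAL1, ran from 2.88 to 21.1 CPM (median 15.5) against 3.70, 2.57, 6.98, 4.48 and 2.87 CPM, overlapping, with a difference of 1.43 ± 0.59 (SE, adjusted p = 0.229).

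Several other genes of these lists were not called. Dbp differed by -0.041 ± 0.34 (SE, adjusted p = 0.969), Nr1d1 by 0.067 ± 0.14 (SE, adjusted p = 0.839), Per3 by -0.32 ± 0.39 (SE, adjusted p = 0.71) and Ciart by -0.081 ± 0.43 (SE, adjusted p = 0.95). Clock itself, partner of BMAL1, differed by -0.019 ± 0.16 (SE, adjusted p = 0.97). None of these 5 was called, and each standard error exceeded the difference itself. For Ciart the Fos-high values lay on both sides of the Fos-low range of 14.9 to 21.3 CPM. They were 24.5, 28.5 and 29.2 CPM in Sham-NT 2, TAC-mScarlet 2 and TAC-BacNav 1, and at most 12.2 CPM in the other Fos-high libraries. Arntl was at 2.88, 3.69 and 3.72 CPM in those libraries and at 15.5 CPM or more in the other Fos-high libraries. This split was read after the values were seen and was not tested.

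Of 24 heat shock chaperones, 13 were called lower in Fos-high hearts, none higher, and all 24 differences were below 0, with a median of -0.47. The count fell to 6 without TAC-mScarlet 4, the library with the highest summed level. That sum was 10698 to 13920.1 CPM in Fos-high and 12956 to 18812 CPM in Fos-low libraries, which overlapped. Hsph1 (chr5:149614287-149636376), a nucleotide exchange factor of HSP70, ran from 59.6 to 98.5 CPM (median 79.5) against 142, 121, 255, 162 and 164 CPM, a difference of -1.12 ± 0.15 (SE, adjusted p = 0.000306). Hspa1a, an inducible HSP70, ran from 2.52 to 6.79 CPM (median 5.39) against 6.38, 6.81, 61.3, 25.1 and 11.4 CPM. Its sides overlapped slightly, the TAC-mScarlet 4 value stood far above the rest, and the difference was -2.29 ± 0.29 (SE, adjusted p = 0.000306).

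Hspa1b, a near-identical copy whose reads may be shared with Hspa1a, was at 5.36, 6.20, 74.8, 22.8 and 15.7 CPM in Fos-low hearts and ran from 2.16 to 11.7 CPM (median 5.60) in Fos-high hearts. Its difference was -2.14 ± 0.43 (SE, adjusted p = 0.0207), a call lost without TAC-mScarlet 4, TAC-BacNav 1 or TAC-BacNav 3 (largest adjusted p 0.122). The HSP70 co-chaperones Dnaja1 and Dnajb4 differed by -0.90 ± 0.14 (SE, adjusted p = 0.00165) and -0.70 ± 0.11 (SE, adjusted p = 0.00111) and kept their calls in all such fits. Hsp90aa1, the inducible HSP90 (chosen after its values were seen), was 171 to 330.3 CPM against 263 to 683 CPM and differed by -0.83 ± 0.14 (SE, adjusted p = 0.00202). Of 24 unfolded protein response genes, which serve the endoplasmic reticulum, 1 was called lower and none higher. It was the disulfide isomerase Pdia4, at -0.51 ± 0.12 (SE, adjusted p = 0.0261). That call was lost without TAC-mScarlet 4, TAC-BacNav 1 or TAC-BacNav 4 (largest adjusted p 0.221). Cirbp, an RNA-binding protein that rises in the cold, was called higher by 0.56 ± 0.11 (SE, adjusted p = 0.0102), lost without TAC-mScarlet 4 (adjusted p 0.0853), while its relative Rbm3 was not called, at 0.31 ± 0.11 (SE, adjusted p = 0.137).

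**Figure D4:**
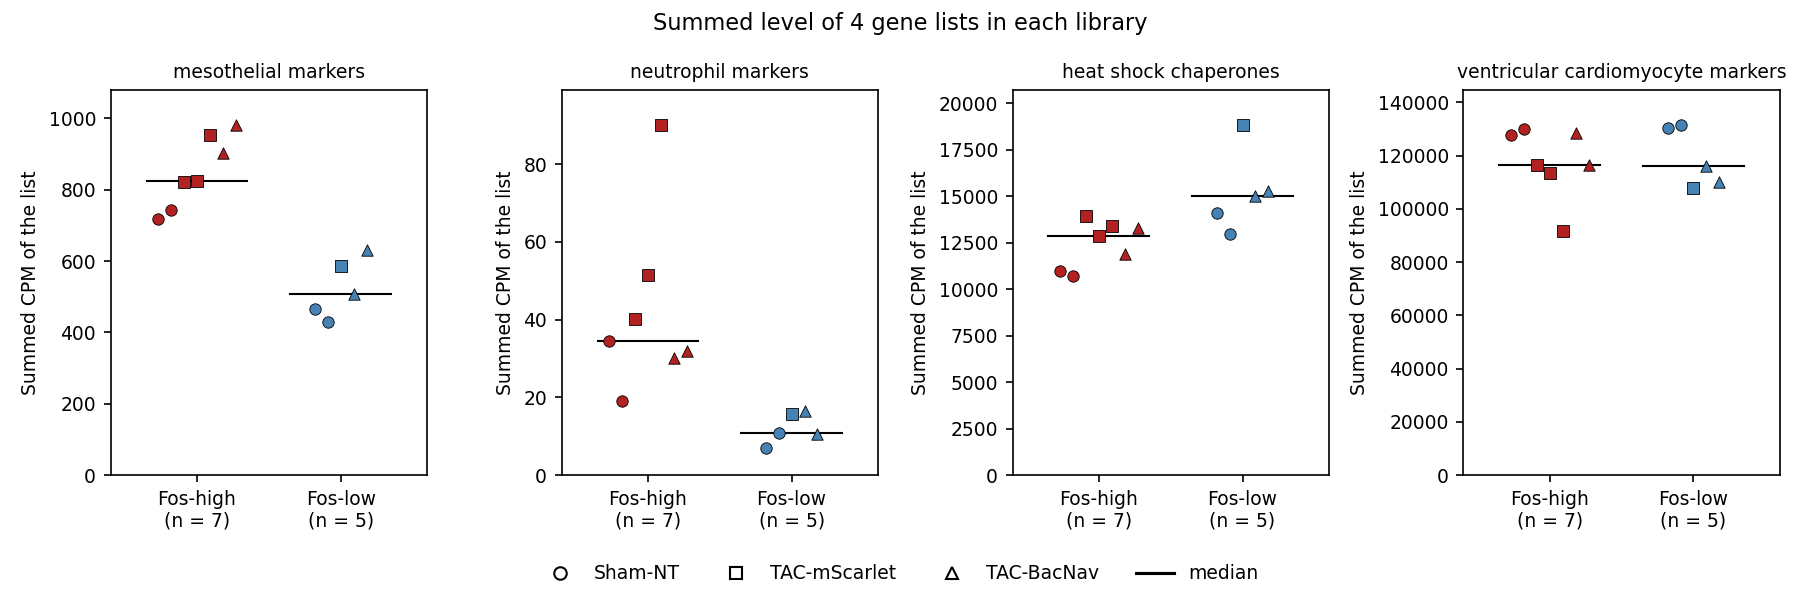
Summed CPM of 4 lists in each library by Fos side (linear axes from 0); symbols give the group and lines the median. Mesothelial sums (718 to 980.0 against 429 to 631) and neutrophil sums do not overlap between the sides, heat shock sums overlap, and ventricular cardiomyocyte sums overlap with the lowest value, 91649, in a Fos-high library.

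Calls among genes of pressure overload depended on TAC-mScarlet 3, a Fos-high library. Of 19 hypertrophic and fetal cardiac genes, 1 was called lower, the cytokine receptor Tnfrsf12a, at -0.61 ± 0.16 (SE, adjusted p = 0.0396), while 17 of the 19 differences lay below 0. The count was 0 to 5 when single libraries were left out, with 5 without TAC-mScarlet 3, 2 without Sham-NT 1 or Sham-NT 4, and 0 in 7 of the 12 fits. Ankrd1 (chr19:36111961-36120099), a stretch-induced protein of the sarcomere and nucleus, ran from 605 to 7813 CPM (median 2463) against 947, 863, 6683, 3388 and 3495 CPM, with a difference of -0.46 ± 0.16 (SE, adjusted p = 0.117). Its low values on both sides were those of Sham-NT. The natriuretic peptides Nppa and Nppb differed by -0.998 ± 0.59 (SE, adjusted p = 0.403) and 0.17 ± 0.35 (SE, adjusted p = 0.842), the slow myosin Myh7 by -0.11 ± 0.28 (SE, adjusted p = 0.874) and the matrix protein Postn by -0.64 ± 0.67 (SE, adjusted p = 0.659). Without TAC-mScarlet 3, Nppa (-1.44, adjusted p = 6.15e-05), Ankrd1 (-0.54, adjusted p = 0.00785) and Postn (-1.15, adjusted p = 0.0422) were called lower in Fos-high hearts. Among 34 collagen and matrix genes, Thbs1, a matrix glycoprotein, was the 1 called, higher by 2.14 ± 0.40 (SE, adjusted p = 0.019), with overlapping sides and the call lost without Sham-NT 3, TAC-mScarlet 4, TAC-BacNav 3 or TAC-BacNav 4 (largest adjusted p 0.062).

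Genes of energy supply and translation had small positive differences and were almost all uncalled. Of 52 oxidative phosphorylation genes, 51 lay above 0 with a median of 0.24, and 1, Cox7b, was called, at 0.45 ± 0.12 (SE, adjusted p = 0.0466), a call kept in only 2 of 12 fits that left out a library. Of 59 cytosolic ribosomal protein genes, 58 lay above 0 with a median of 0.25 and none was called. The summed levels of both lists overlapped between the sides. Within Sham-NT, TAC-mScarlet and TAC-BacNav the medians were 0.30, 0.034 and 0.35 for oxidative phosphorylation. For ribosomal proteins they were 0.47, 0.098 and 0.13. Among 26 ion channel genes of the ventricle, only Gja1, the gap junction protein connexin 43, was called, at 0.57 ± 0.13 (SE, adjusted p = 0.0246), a call kept in 5 of 12 such fits. Of 20 p53 targets, 4 were called higher (20%, against 2.16% of all genes), and 2 without TAC-mScarlet 4. They were Btg2, Gadd45a, Plk2 and the death receptor Tnfrsf10b, which differed by 2.002 ± 0.19 (SE, adjusted p = 7.13e-06). None of 36 CLK kinase, L cyclin and SR splicing factor genes and none of 20 cell cycle genes was called.

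The comparison was then read within each group, in the order Sham-NT, TAC-mScarlet and TAC-BacNav. Junb differed by 2.89, 2.87 and 3.53, Dusp1 by 2.08, 1.97 and 2.11 and Cxcl1 by 4.11, 2.96 and 3.54 on the log2 scale. On the lower side, Fkbp5 differed by -1.42, -1.87 and -1.48, Ddit4 by -2.45, -1.56 and -2.63 and Hspa1a by -1.30, -3.29 and -1.81, so that the chaperone stood farthest apart in TAC-mScarlet, where a single Fos-low library sets the value. List medians were 1.03, 0.90 and 1.31 for immediate early factors, 1.69, 1.45 and 2.18 for mesothelial markers, -0.28, -0.18 and -0.47 for glucocorticoid-responsive genes and -0.40, -0.75 and -0.29 for heat shock chaperones. The median of activated fibroblast markers, none of which was called in the pooled fit, was -0.16, -0.033 and -1.14.

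Of the 551 called genes, 550 had the same sign in all 3 groups, a description since these groups make up the pooled estimate. The exception was Tgfb1i1, a focal adhesion protein chosen after its values were seen. Fitted by group, Sham-NT called 39 genes higher and 6 lower (0.324% in all), TAC-mScarlet 21 and 16 (0.266%), and TAC-BacNav 88 and 38 (0.906%). A test of the difference itself, the interaction of side and group in edgeR, called 0 genes (0%). At an unadjusted p below 0.05 it had 572 genes, and the smallest adjusted p was 0.0597. Differences in the size of the side effect between groups were therefore not detectable with 1 to 3 libraries per side and group.

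**Figure D5:**
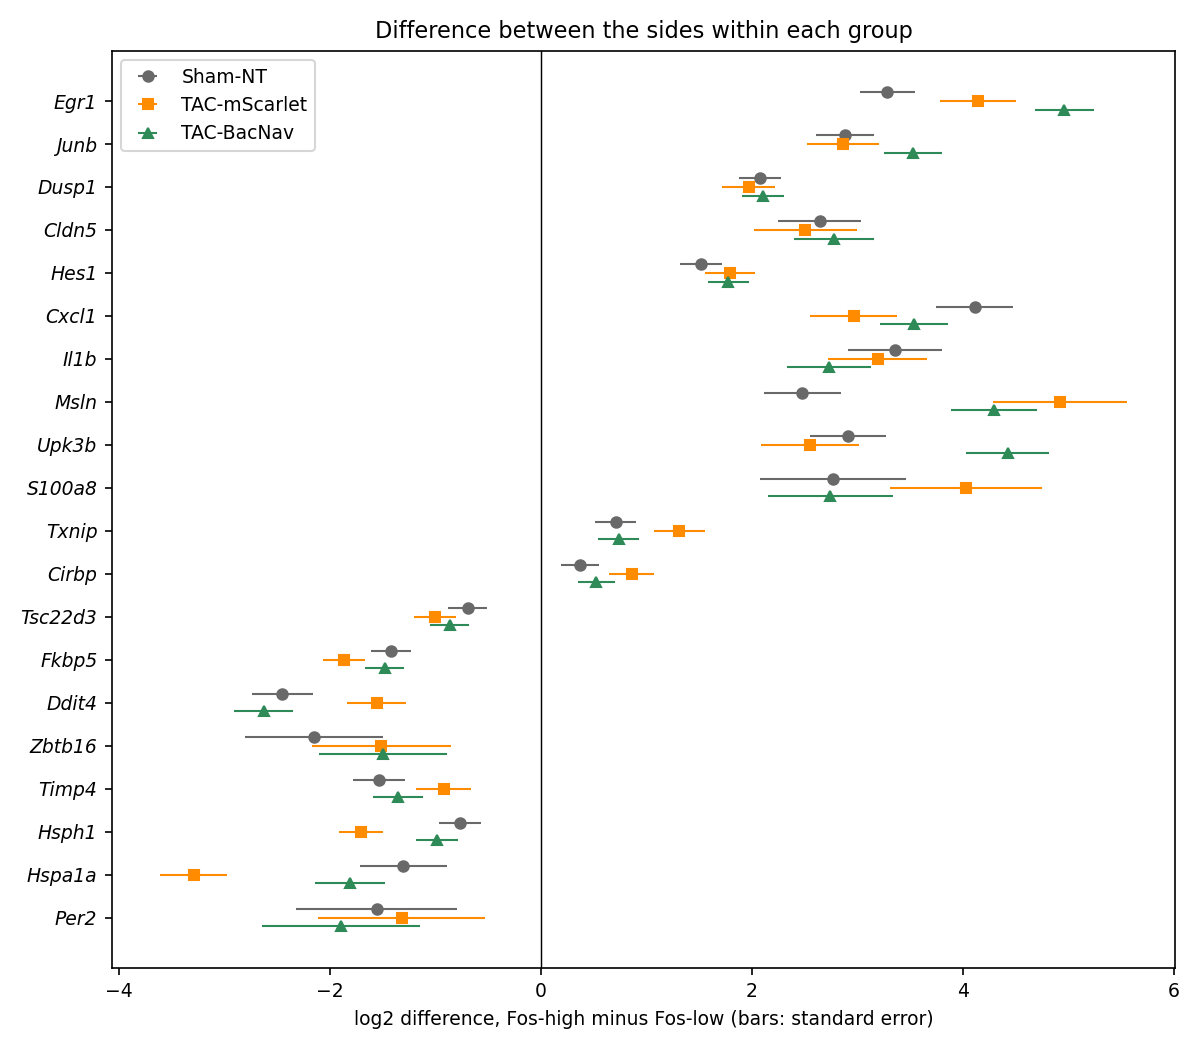
Log2 difference of Fos-high minus Fos-low within each group for 20 genes, with standard errors from the interaction fit; a single Fos-low library enters TAC-mScarlet. Every gene shown keeps its sign in the 3 groups, from Egr1 (3.29, 4.14 and 4.96) to Per2 (-1.56, -1.32 and -1.89).

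Because the groups held unequal numbers of each side, the group comparisons were fitted with and without side. Side was cut from the same counts, measured after treatment. Among Fos-high hearts, Fos was at 50.7 and 75.7 CPM in Sham-NT and at 129.8 to 305 CPM in the TAC groups. The covariate thus does not level Fos between the groups, and the fit with side is not a cleaner treatment comparison. TAC-mScarlet against Sham-NT called 1459 genes (10.5%; 711 higher, 748 lower) with side as covariate and 719 (5.17%; 369 higher, 350 lower) without it, and all 719 were among the 1459. Scaled to library size in place of TMM, the fit with side called 1369 higher and 469 lower. That scaling moved the median of all genes by 0.14 on the log2 scale. Counts with side fell to 551 without Sham-NT 2, 696 without Sham-NT 4 and 900 without TAC-mScarlet 4. Ankrd1 was 2.84 ± 0.20 (SE, adjusted p = 1.81e-06) higher with side, and 2.72 ± 0.24 (SE, adjusted p = 6.70e-05) without. Nppa gave 5.17 ± 0.79 (SE, adjusted p = 0.0071) and 4.79 ± 0.83 (SE, adjusted p = 0.0229).

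TAC-BacNav against TAC-mScarlet called 0 genes (0%) in edgeR with side and 0 without it. The models had 714 and 467 genes at an unadjusted p below 0.05, and DESeq2 called 18 with side, 6 higher and 12 lower. The smallest adjusted p in edgeR with side was that of Ankrd1, at -1.18 ± 0.19 (SE, adjusted p = 0.172), compared with -1.03 ± 0.23 (SE, adjusted p = 0.855) without side. TAC-BacNav against Sham-NT called 8 genes (0.0575%) with side and 2 (0.0144%) without, with Ankrd1 called in both fits. Ankrd1 gave 1.66 ± 0.19 (SE, adjusted p = 0.00176) with side and 1.69 ± 0.24 (SE, adjusted p = 0.0401) without. The 8 included Egr2 and Ccn1, which also differed between the sides, and the count ran from 1 to 177 when single libraries were left out, with 1 without Sham-NT 4, 177 without Sham-NT 3 and 171 without TAC-mScarlet 3. These comparisons share their libraries and were not set against each other.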

How the data were processed

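The deposited tables hold whole-number counts per gene from bulk RNA-seq (Illumina HiSeq, paired reads, per the labels' protocols), 1 file per mouse. The submitters' processing notes name HISAT2, featureCounts and the human build GRCh38, whereas the deposited identifiers are mouse Ensembl genes, of which 14946 of 14957 matched GENCODE vM21 (GRCm38) without their version. Versions and the strand setting were not given in these sources, so reads of overlapping genes on opposite strands cannot be told apart: 27 of the 104 named genes share exon sequence with another gene. Besides Dusp1, Timp4 and Junb, marked above, they include Jun, Il1b, Zfp36, Txnip, Ucp2, Ankrd37 and Hspa1a. No gene of the deposited tables had fewer than 30 counts in all. The Fos sides, the gene lists and the named genes were chosen with earlier results of these data known.

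The test was edgeR 4.0.16 under R 4.3.3 (TMM scaling, filterByExpr by group, which kept 13910 and removed 1047 genes, robust quasi-likelihood fit, two-sided). The common biological coefficient of variation was 0.173. Each library came from its own mouse, and every pair within a group differed by more than sampling noise (chi-square over its degrees of freedom at least 5.35). SE is the absolute log2 difference divided by the square root of the F statistic. CPM are counts over the library total, scaled as usual, without TMM. Named genes are a set of anchors, the 12 largest differences in each direction among called genes with at least 1 CPM on average and no overlap of the sides, up to 4 called genes per list and direction by smallest p, and the 5 smallest p per direction. Alternatives were DESeq2 1.42.0, limma 3.58.1 (voom), other scaling, filters and covariates, and leaving out each library. On simulated counts for this comparison (13910 genes, 3 draws), the share of changes recovered was 40.3% at 1.5-fold, 80.6% at 2-fold and 98.5% at 4-fold, with 9 false calls on average. Each gene was drawn independently from its group means, with 200 genes changed per draw. The simulated counts held no variation shared between genes or by mouse number. The false calls are therefore no error rate for the real comparison. Some genes are not reported here.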

Additional observations from a re-analysis of the deposited data

Results flagged for a closer look

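Within each Fos side, the log2(CPM + 1) values of the 104 named genes were screened for a library whose gap to its nearest neighbour was large against the range of the side. Of 208 sets tested, 7 had such a library, which is fewer than the about 1 in 20 sets that chance gives. The 7 are therefore listed as a description only.

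In the Fos-low side, TAC-mScarlet 4 stood apart in 2 genes. Cirbp, a cold-inducible RNA-binding protein, was at 29.3 CPM there and at 38.3 to 42.2 CPM in the other Fos-low libraries. P4ha2, a collagen prolyl hydroxylase, was at 108 CPM against 82.4 to 85.9 CPM. Sham-NT 4 stood apart in 3 genes of the same side. Clock, the circadian activator, was at 29.2 CPM against 47.1 to 56.9 CPM, and Nfil3, a transcriptional repressor, at 18.2 CPM against 25.6 to 28.2 CPM. Phyhd1, a dioxygenase, was at 11.2 CPM against 6.18 to 7.10 CPM.

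In the Fos-high side, the kinase gene Sgk1 was at 80.2 CPM in TAC-mScarlet 3 and at 153 to 219 CPM in the other 6 libraries. Tsc22d3, the glucocorticoid-induced leucine zipper, was at 184 CPM in TAC-mScarlet 2 against 129 to 150.4 CPM, still below every Fos-low library.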

How the results depend on the processing

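The side comparison called 551 genes. It called 907 with DESeq2, 357 without the group covariate, 309 without the TAC-mScarlet group, 274 in the constricted hearts alone, and 45, 37 and 126 within Sham-NT, TAC-mScarlet and TAC-BacNav. Leaving out single libraries gave 251 to 803, and 0 of the 551 genes changed sign in those fits. With library size scaling the count was 532, with limma-voom 555, without the filter on low counts 567, with a minimum mean of 1 CPM 548, with log2 library total as covariate 413 and with log2 Fos CPM in place of the threshold 477. The interaction of side and group called 0 to 2 genes in the fits that left out a library, and it could not be fitted without TAC-mScarlet 4, since that group then has no Fos-low library. The difference in library totals, -0.577 M counts, ran from -1.01 to 0.210 M when single libraries were left out.

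Of the group comparisons with side as covariate, TAC-mScarlet against Sham-NT called 719 genes without side, 1858 with DESeq2 and 551 to 1735 with single libraries left out. TAC-BacNav against TAC-mScarlet called 18 with DESeq2 and 0 to 2 with single libraries left out. TAC-BacNav against Sham-NT called 2 without side, 22 with library size scaling, 201 with DESeq2 and 1 to 177 with single libraries left out.

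The groups share mouse numbers. Deviations of same-numbered libraries from their group means had correlations from -0.29 to 0.376 (median 0.128, 12 pairs). Those of different numbers ran from -0.37 to 0.51 (median -0.068, 36 pairs). The numbers were not taken as pairs in the main fit, and number and side cannot be told apart. With the mouse number as a replicate block, the side comparison called 15 genes, 13 of them among the 551, and 23 of the 551 changed sign. Only number 3 holds both sides, so that fit rests on it. By correlation, 3 of 12 libraries were closest to one of their own number and 12 of 12 to one of their own side. The group comparisons called 376, 1 and 57 with the block, in the order above.

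Among genes named by the rule, those that changed sign were uncalled, except Pam at 0.014 with the replicate block. That block also turned Ankrd1 (0.25), Clk4 (-0.13), Myh7 (0.41), Nppa (1.41), Per1 (-0.32), Postn (1.88) and Sgk1 (-0.69). Dropping the group covariate turned Ankrd1 (0.013), Clk4 (-0.031), Clock (0.0070), Myh7 (0.65), Nppa (0.40) and Postn (0.52). In the joint fit with a side term for each group, the Sham-NT term turned Clk1 (0.28), Clock (0.25), Myh7 (0.15) and Nr1d1 (-0.32). Its TAC-BacNav term turned Ciart (0.10), Clk4 (-0.35), Dbp (0.24) and Myc (-0.23). Its TAC-mScarlet term turned Ciart (0.15), Clk1 (0.16), Dbp (0.20), Myh7 (0.82), Nppb (-0.69), Per3 (0.011) and Postn (0.20). The constricted hearts turned Ciart (0.12), Clk4 (-0.18), Dbp (0.23) and Nppb (-0.18), and leaving out TAC-mScarlet turned Clock (0.012) and Nr1d1 (-0.014). Library size scaling turned Clk4 (-0.011), limma-voom Clk1 (0.025), log2 library total Clk4 (-0.15) and Dbp (0.10), and continuous Fos Clk4 (-0.016) and Clock (0.012). With single libraries left out, Ciart ran from -0.39 to 0.17, Clk1 from -0.16 to 0.20, Clk4 from -0.11 to 0.21, Clock from -0.13 to 0.071, Dbp from -0.25 to 0.21, Myh7 from -0.41 to 0.10, Nppb from -0.099 to 0.55 and Nr1d1 from -0.025 to 0.19. The cause of these changes was not tested.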

Other observations

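Beyond the lists, 4 further genes were named for the size of their difference between the sides. Cybrd1, a ferric reductase that supplies iron for uptake, ran from 2.04 to 6.16 CPM (median 4.04) in Fos-high libraries. It was at 0.893, 0.151, 0.237, 0 and 0.348 CPM in Fos-low libraries, with a difference of 3.74 ± 0.50 (SE, adjusted p = 0.000296). No Fos-low library reached the filter level of 1.22 CPM, so Cybrd1 entered the test through Fos-high libraries alone. The size of its difference is set against values near 0. Tcf23, a helix-loop-helix factor, ran the other way, with 0.746 to 2.93 CPM in Fos-high and 3.53 to 7.31 CPM in Fos-low libraries. Its difference was -1.40 ± 0.33 (SE, adjusted p = 0.0255), a call lost without Sham-NT 1, TAC-mScarlet 4, TAC-BacNav 2 or TAC-BacNav 4. Bard1, a ubiquitin ligase subunit, and Mycn, a relative of Myc, were also lower in Fos-high hearts, with differences of -1.27 ± 0.33 (SE, adjusted p = 0.0411) and -1.16 ± 0.31 (SE, adjusted p = 0.0463), calls kept in 1 and 2 of 12 fits that left out a library.

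The smallest adjusted p of the interaction of side and group, 0.0597, belonged to Mir6236 and Gm15564, followed by Lars2 at 0.0851. All 3 were chosen after their values were seen. Within Sham-NT, TAC-mScarlet and TAC-BacNav the side difference of Lars2, the mitochondrial leucyl-tRNA synthetase, was 2.65, 0.34 and 3.28, and that of Mir6236 was 2.47, -0.26 and 4.02. None passed the threshold.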
